A study of Mus musculus with 21 samples.

Results

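Broad H3K79me2 domains are stretches of chromatin over which dimethylation of lysine 79 of histone H3 was called as 1 unbroken peak wider than 20 kb. They were chosen by their measured width alone from the peak list of mouse embryonic stem (ES) cells treated with the solvent DMSO, and 484 of its 13437 peaks were wide enough. Width is therefore what chose them, and their widths are given below as a description. The H3K79me2 measurement comprised 1 library of DMSO-treated cells and 1 library of cells treated for 4 days with 1 µM 3-MB-PP1, each with its own input, so no difference between the treatments has a replicate check and no test was made between them. Both were V6.5 cells grown without feeder cells and carried the Cdk1as/as genotype, in which the mitotic kinase Cdk1 has an enlarged nucleotide pocket that 3-MB-PP1 blocks. A further library, from cells of the same genotype, mapped DNA near proteins that Cdk1 had tagged with thiophosphate (Thio-ChIP). Those cells were kept in another medium and received retinoic acid together with 3-MB-PP1, and the tag was added after the inhibitor had been washed off.

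H3K79me2 is placed by a single enzyme, Dot1l, which travels with factors that help RNA polymerase II elongate. The mark lies over transcribed genes, mostly from just downstream of the start into the first part of the gene body, and it is best known from leukaemias in which fusion proteins recruit Dot1l and the mark spreads over the target genes. Unlike many histone marks it lies on the face of the nucleosome rather than on a tail.

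The genes under the domains were not named. All 3 peak lists ran past the last gene of the GRCm38 assembly on 7 of 20 chromosomes, on chromosome 7 by 6.80 Mb in the DMSO list. When the domains were laid on GRCm38 starts of genes at 10 FPKM or more in ES cells, 67 of 466 domains (14.4%) held such a start without any shift. That was above the median of 41 over shifts of up to 5 Mb either way, but a shift of -165000 bp gave 81, and the unshifted position was the best on 1 of 19 chromosomes. The lists were therefore not treated as GRCm38, mm9 is the only other build in the submitters' processing notes, and positions below are as deposited. In the ES cell expression table, 6736 of 6738 genes at that level matched by symbol overlapped their GRCm38.p6 position. Peaks and gene tables were not joined, so expression and the Dot1l knockout response of the genes under the domains are not analysed here, and no sequence is shown. Among themselves the peak lists lined up without a shift. A Thio-ChIP peak centre lay within 2 kb of 307 domain edges unshifted, the highest count at any shift tried (median over shifts 15). An inhibitor boundary of the same side lay within 2 kb of 527 domain edges unshifted, again the highest count (median 40).

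RNA of the ChIP cells was not measured. In a separate set of 3 Cdk1as/as ES cell libraries kept on feeder cells, 8 of 8 ES cell markers were present, from 55.2 FPKM for Zfp42 to 929 FPKM for Pou5f1. Fibroblast markers had a median of 4.93 FPKM over 11 genes, with Tagln highest at 121 FPKM and Lum at 0. Primitive streak markers reached at most 2.88 FPKM, for Eomes.

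The domains were few among the peaks but held much of the marked sequence. They made up 3.60% of DMSO peaks and covered 15.7 of 59.9 Mb, or 26.2% of the bases called. The median peak of the whole list was 2073 bp wide and the median domain 27.7 kb, with quartiles of 23.1 and 35.7 kb. Most domains were near the lower limit: 287 were up to 30 kb wide, 152 were between 30 and 50 kb, 45 exceeded 50 kb and 5 exceeded 100 kb. The 3 domains just inside the limit were 20006, 20056 and 20079 bp wide, and the 3 peaks just outside it were 19972, 19969 and 19968 bp wide. The widths ran on without a gap across the limit.

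**Figure D1:**
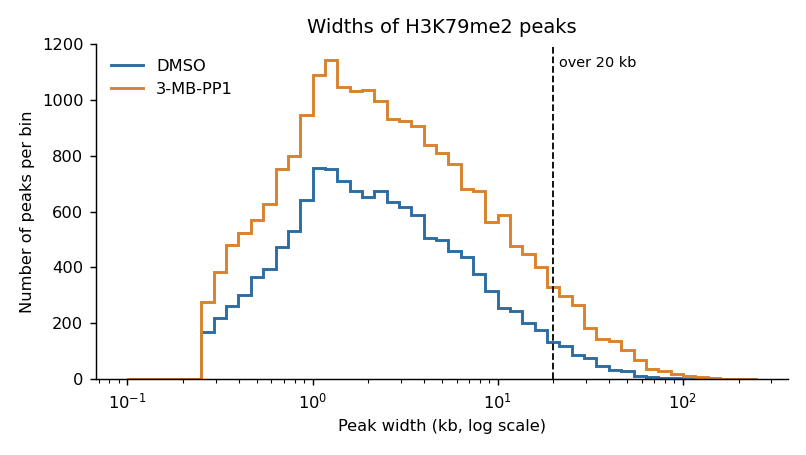
Number of H3K79me2 peaks (y axis) by peak width (x axis, kb, log scale) in the DMSO list (blue) and the 3-MB-PP1 list (orange), with a dashed line at 20 kb. The DMSO list has 484 peaks beyond the line and the inhibitor list 1467, in distributions without a break.

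The widest domain lay on chromosome 10 from 66547408 to 66693808 and spanned 146 kb. The next was on chromosome 13 from 44826675 to 44962054, at 135 kb, and the third on chromosome 8 from 125439066 to 125568573, at 130 kb. The fourth, on chromosome 3 from 21975995 to 22079864, measured 104 kb, and the fifth, on chromosome 13 from 35829876 to 35931916, measured 102 kb. Chromosome 13 thus held 2 of the 5 domains over 100 kb although it had 15 domains in all. Ranks 6 to 10 were on chromosome 5 (119010994 to 119105895, 94.9 kb), chromosome 14 (22320664 to 22412191, 91.5 kb), chromosome 7 (119823363 to 119909761, 86.4 kb), chromosome 4 (130219283 to 130302714, 83.4 kb) and chromosome 1 (167849456 to 167932691, 83.2 kb).

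The highest-scoring peaks were mostly not the widest. The authors' peak score, which ranks peaks within 1 list, had a median of 77 in the domains (quartiles 51.75 and 123.5, range 24 to 369) and of 24 in the other DMSO peaks. No domain scored below the list's median of 24. Among the 484 highest-scoring DMSO peaks 75 (15.5%) were domains, a larger share than the 3.60% of domains among all DMSO peaks. The top score of 583 belonged to a peak 15965 bp wide. Over all 13437 DMSO peaks Spearman's rho between score and width was 0.621. Among the domains it was 0.0778, but their range of widths is cut by the rule that chose them, so the values are not comparable. Both describe peaks of 1 library, which are not replicates.

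Domains were found on every chromosome of the list, which holds the autosomes and X. Their number ran from 4 on chromosome X to 45 on chromosome 2. As a share of the chromosome's own peaks it ran from 1.34% on X (95% Wilson interval 0.523% to 3.40%) to 4.43% on chromosome 18 (2.82% to 6.90%), against 3.60% over all. The X interval ended below the overall share, but it was the lowest of 20 chromosomes and such intervals cover counting error only. Chromosome 19 had 10 domains in 428 peaks (2.34%, interval 1.27% to 4.25%). The wholly covered share discussed next also varied by chromosome, from 64.4% on chromosome 2 to 100% of the 4 on X.

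Many domains had another peak close by, only somewhat more often than the other peaks did. The nearest other DMSO peak was a median of 2442 bp away from a domain and 3312 bp away from the other peaks. The list has no gap below 1161 bp. Another peak lay within 5 kb of 308 domains (63.6%), against 58.1% of the other peaks, and 107 domains had none within 20 kb. Domains themselves were mostly far apart, with a median of 2.65 Mb between adjacent ones, but 34 adjacent pairs were within 100 kb and 13 pairs within 5 kb. On chromosome 15, 3 domains followed each other with gaps of 1.65 and 2.05 kb (61869296 to 61923188, 61924837 to 61965890 and 61967941 to 61991201).

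The next comparison asked what became of the domains under Cdk1 inhibition. Every domain was found again in the inhibitor list, and most were called wider there. All 484 overlapped an inhibitor peak, where 96.8% of all DMSO peaks did, and none of the DMSO peaks over 5 kb lacked an overlap. Inhibitor peaks covered 372 domains (76.9%, Wilson interval 72.9% to 80.4%) from edge to edge, a share near the 77.3% of all DMSO peaks. Over all domains 99.3% of bases were covered, against 96.1% in the other DMSO peaks, and the lowest share in 1 domain was 79.6%. These values stand against an inhibitor list that was larger throughout, with 22352 peaks and 132 Mb, 1.66 and 2.21 times the DMSO list. The sources used here do not give the depth of either ChIP library, so treatment and library cannot be told apart.

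With the inhibitor the outer span of the overlapping peaks had a median of 40.2 kb, against 27.7 kb in DMSO. The ratio of the 2 widths had a median of 1.26 with quartiles of 1.07 and 1.70, and it was above 1.5 in 155 domains (32.0%), above 2 in 81 and above 3 in 20. Over all DMSO peaks 74.8% passed 1.5, and the share went down with width: 84.7% of peaks up to 2 kb, 75.2% of those of 2 to 5 kb, 62.4% at 5 to 10 kb and 50.6% at 10 to 20 kb. In bases the medians of the width classes were similar. The length added beyond the edges had a median of 7817.5 bp in the domains, with quartiles of 2377 and 22022 bp. The medians were 7285 bp at 10 to 20 kb, 6558 bp at 5 to 10 kb, 6822 bp at 2 to 5 kb and 8769.5 bp up to 2 kb. Peaks without an overlap are left out of these medians. Added length also counts any neighbouring DMSO peak within the span, so a narrow peak beside a broad one is credited with that one's length. The medians of the 5 width classes thus lay close together beside the spread within the domains, while the ratios, which divide by the width that chose the domains, did not.

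**Figure D2:**
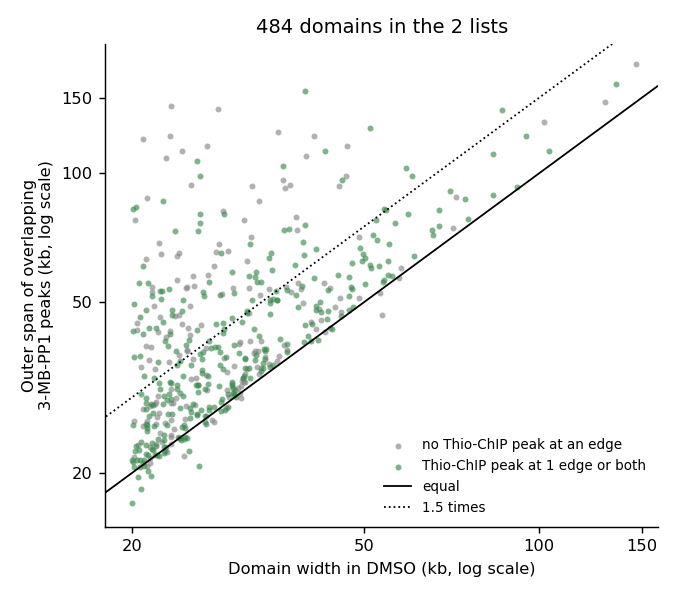
Outer span of the overlapping 3-MB-PP1 peaks (y axis, kb, log scale) against domain width in DMSO (x axis, kb, log scale) for the 484 domains. Points are domains, green with a Thio-ChIP peak within 2 kb of an edge and grey without, and the lines mark equal width and 1.5 times. Of the domains 39 lie below the solid line and 155 above the dotted one.

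Extension past an edge was common, and by over 1 kb it was more often at 1 edge than at both. Inhibitor peaks passed both edges of 380 domains, 1 edge of 97 and neither edge of 7. Counting only steps of over 1 kb, they passed both edges of 129 domains, 1 edge of 281 and neither of 74. These counts were not made for the other DMSO peaks, so whether the domains differ from them here was not tested. The widest domain, on chromosome 10, was extended by 30.0 kb on the left and 3.22 kb on the right, and the resulting peak of 180 kb was also the widest of the inhibitor list. The second, on chromosome 13, gained 25.9 kb on the right while its left boundary moved inwards, at -29 bp. The domain on chromosome 7 that ranks eighth gained 54.2 kb on the right and 24 bp on the left. The domain on chromosome 14 that ranks seventh hardly changed, with 218 bp on the left and 1002 bp on the right, although another DMSO peak was 3.18 kb away.

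**Figure D3:**
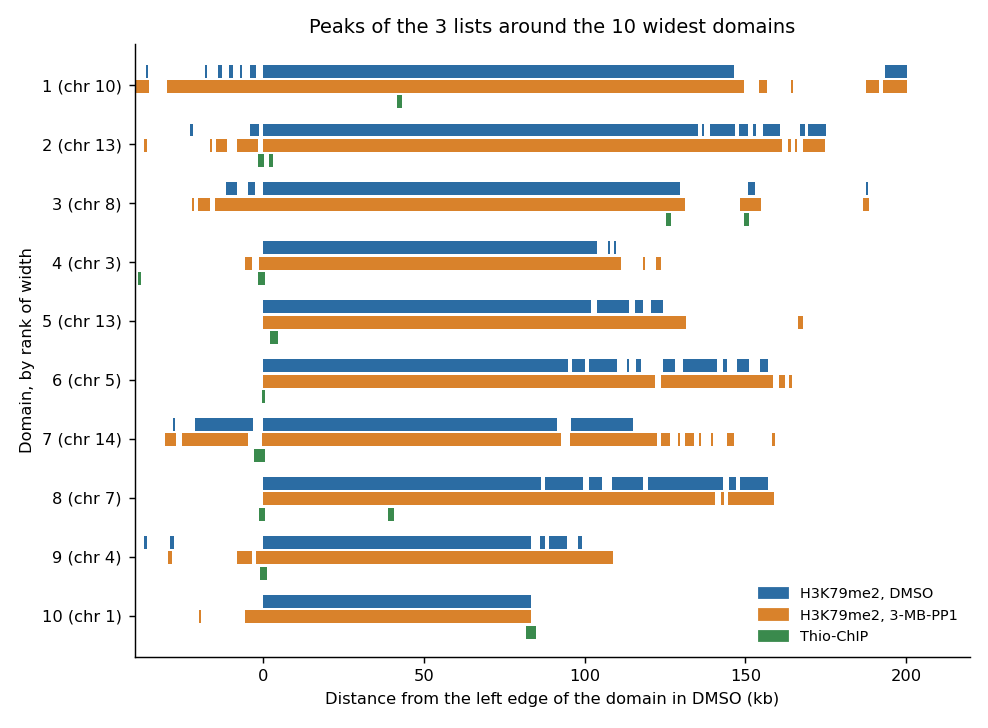
Peaks of the DMSO list (blue), the 3-MB-PP1 list (orange) and the Thio-ChIP list (green) around the 10 widest domains. The x axis gives the distance from the domain's left edge in DMSO (kb) and each row is 1 domain by rank of width, and in most rows the orange bar runs past 1 end of the blue domain over smaller blue peaks that follow it.

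Much of the added length was already marked in DMSO. The inhibitor peaks over 280 domains reached at least 1 further DMSO peak, with a median of 2 and up to 23, and these domains gained a median of 17.8 kb. The other 204 domains gained a median of 1.66 kb. These 2 groups are divided by how far the inhibitor peaks reached, so a larger gain in the first is built in. The same count was not made over all DMSO peaks. Of 7.54 Mb gained over all domains, counted per domain, 50.0% lay in peaks of the DMSO list. The added length is therefore not all sequence outside the DMSO calls. Of the 34 adjacent domain pairs within 100 kb, 13 were joined into 1 inhibitor peak, among them 9 of the 13 pairs within 5 kb. Gaps that were closed had a median of 1.73 kb. The widest was the 33.3 kb between the eighth widest domain and the one beside it on chromosome 7 (119943081 to 119966421).

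Low-scoring domains were extended most. When the domains were ranked by their DMSO score and divided into 4 groups of 121, the median gain was 17.8 kb in the lowest group, then 10.9 and 7.08 kb, and 3.73 kb in the highest. The ratio of widths passed 1.5 in 64, 46, 33 and 12 domains of these groups. The lowest group also stood most often beside another DMSO peak, within 5 kb in 95 of 121 domains, against 76, 70 and 67 in the others. Median widths were 25.5, 28.8, 28.2 and 28.5 kb, so the groups differed little in the measure that chose them. Complete coverage followed a different order, with 100, 104, 93 and 75 domains.

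The 5 domains with the largest ratio, named after their values were seen, included 4 with a score of 32 or less. On chromosome 7 the domain from 119943081 to 119966421, with a score of 24, had an outer span of 143 kb (6.15 times its width). On chromosome 9 the domain from 65620131 to 65641029 (score 31) had one of 120 kb, 5.74 times its width, and on chromosome 15 the domain from 61967941 to 61991201 (score 32) had one of 122 kb, 5.25 times. The others were on chromosome 4 (149668125 to 149696220, score 28, 5.02 times) and chromosome 15 (58890363 to 58913269, score 94, 4.75 times). All 5 spans reached other DMSO peaks, numbering 4, 10, 10, 17 and 10 in the order given. The chromosome 7 span came mostly from an inhibitor peak of 141 kb that also overlapped the adjacent 86.4 kb domain. The 122 kb span on chromosome 15 was an inhibitor peak that also overlapped the adjacent 41.1 kb domain. None of these 5 domains had a Thio-ChIP peak within 2 kb of an edge.

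Domains that lost length lost little. In 112 domains part of the DMSO length was not called with the inhibitor, with a median of 484.5 bp and at most 8672 bp. Most of the 106 kb lost lay at the edges (78.5 kb, in 104 domains) and 27.4 kb lay in gaps inside 17 domains, which were split into 2 inhibitor peaks in 16 cases and into 3 in 1. That 1 domain lay on chromosome 2 from 152622398 to 152656062 and kept 90.3% of its length. Splits occurred in 3.51% of domains, 3.17% of DMSO peaks of 10 to 20 kb and 1.96% of those of 5 to 10 kb. Narrower peaks were split less often. The lowest covered share was on chromosome 5 from 136384235 to 136410315, where 5322 of 26081 bp were not called. Next came chromosome 11 from 55283264 to 55308384 (79.8% covered), chromosome 11 from 77497998 to 77528732 (82.1%), chromosome 6 from 148876073 to 148896128 (82.5%) and a domain on chromosome 18 (83.1%). These 5 domains had scores of 95, 249, 233, 260 and 369, the last being the highest of any domain. In 8 domains no inhibitor piece exceeded 20 kb.

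Read from the other side, the inhibitor list had 1467 peaks over 20 kb. Of these 464 held a DMSO domain, 1003 did not and 28 overlapped no DMSO peak at all. DMSO peaks covered a median of 64.2% of an inhibitor peak over 20 kb, and 8 were wholly covered, while the median coverage of DMSO domains by inhibitor peaks was 100%. Taking the same number from each list, the 484 widest inhibitor peaks were all at least 36.9 kb wide. They overlapped 278 of the 484 DMSO domains (57.4%), and 265 of them (54.8%) overlapped a DMSO domain. A broad peak in one list was therefore not always among the widest in the other. The matching shares over all inhibitor peaks and all DMSO peaks were not computed, so these counts describe the broad peaks only.

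The last comparison set the domains beside the Thio-ChIP peaks, which had no part in choosing them. In most domains a Thio-ChIP peak sat at 1 end, and almost never at both. A Thio-ChIP peak touched 315 of 484 domains (65.1%). Its centre was within 2 kb of exactly 1 edge in 305 domains (63.0%, Wilson interval 58.6% to 67.2%), at the left edge in 155 and at the right in 150, and within 2 kb of both edges in only 1. Among all DMSO peaks 21.1% had a Thio-ChIP centre at exactly 1 edge, but in peaks under 4 kb the 2 windows overlap, so narrow classes undercount. The share was 25.1% at 2 to 5 kb, 39.7% at 5 to 10 kb and 50.8% at 10 to 20 kb, so the value of the domains continued a rise with width. In the 1467 inhibitor peaks over 20 kb it was 51.7%, with 5 peaks that had Thio-ChIP at both edges.

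Most of these peaks had their centre just outside the edge. Within 2 kb of an edge there were 309 Thio-ChIP centres, counted per domain, of which 208 lay outside the domain and 101 inside. Their median position was -261 bp, that is outside the domain, with quartiles of -545 and 121 bp. Only 45 centres lay deeper than 2 kb inside a domain. Of the 146 centres inside domains, 69.2% were within 2 kb of an edge, a zone that holds 12.3% of domain bases. From the left to the right end of the domain the centres numbered 57, 7, 4, 2, 3, 5, 5, 0, 4 and 59 in 10 equal parts of its length.

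**Figure D4:**
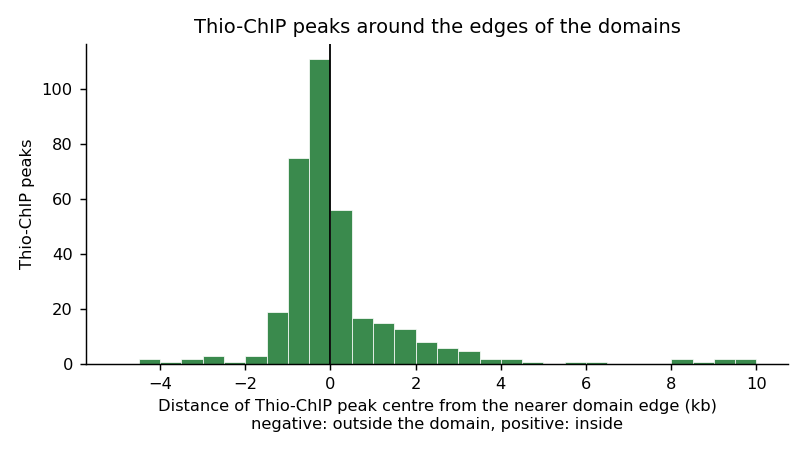
Number of Thio-ChIP peaks (y axis) by the distance of the peak centre from the nearer edge of a domain (x axis, kb, bins of 0.5 kb, negative outside). The tallest bin, with 111 peaks, lies just outside the edge. Centres below -5000 bp or above 10000 bp are not drawn.

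The inhibitor boundary was mostly close to the DMSO boundary at the edge with the Thio-ChIP peak and further out at the opposite edge. In the 305 domains with a Thio-ChIP peak at 1 edge, the inhibitor boundary lay a median of 378 bp beyond the Thio-ChIP edge (quartiles 86 and 1090 bp). At the opposite edge it lay a median of 6601 bp beyond (quartiles 1197 and 15638 bp). It was within 2 kb of the DMSO boundary in 86.2% of domains at the Thio-ChIP edge and in 28.5% at the opposite edge. A gain of over 5 kb occurred at the Thio-ChIP edge in 11 domains and at the opposite edge in 175. The opposite edge had the larger gain in 245 of 305 domains (80.3%, Wilson interval 75.5% to 84.4%), against 75.4% of all DMSO peaks with a Thio-ChIP peak at 1 edge. Among the narrower classes the share was 71.3% up to 2 kb, 72.7% at 2 to 5 kb, 75.1% at 5 to 10 kb and 80.9% at 10 to 20 kb, so narrower peaks showed it too. The median gain at the opposite edge was 2174 bp up to 2 kb and 2108 bp at 2 to 5 kb. It went up to 3520, 5404 and 6601 bp in the next 3 classes. The median at the Thio-ChIP edge stayed between 239 and 379 bp in all 5 classes.

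**Figure D5:**
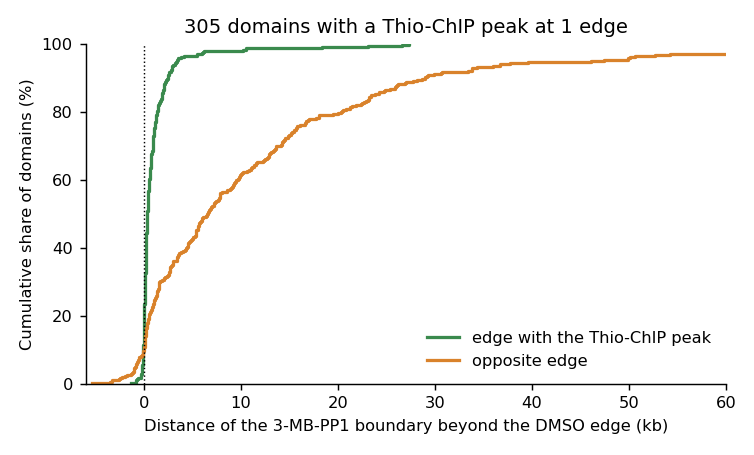
Cumulative share of the 305 domains with a Thio-ChIP peak at 1 edge (y axis, %) by the distance of the 3-MB-PP1 boundary beyond the DMSO edge (x axis, kb, negative inside the domain). Green is the edge with the Thio-ChIP peak (median 378 bp) and orange the opposite edge (median 6601 bp, with 9 domains beyond 60 kb not drawn).

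Other peaks of the DMSO list were placed with the same asymmetry. In these 305 domains the next DMSO peak was a median of 90472 bp away on the Thio-ChIP side and 3582 bp away on the opposite side, and it was within 5 kb in 38 and 172 domains. Where the inhibitor peaks reached no other DMSO peak, the opposite edge had the larger gain in 83 of 137 domains (60.6%). That subset was chosen by the extension itself and leaves out gains that reached a neighbour. The neighbour was nearer on the opposite side in 235 of the 305 domains. Where no other DMSO peak lay within 20 kb of the domain, the opposite edge had the larger gain in 51 of 75 (68.0%). This second subset was chosen by DMSO positions only, and its medians were 378 bp at the Thio-ChIP edge and 1844 bp at the opposite edge. The part of neighbouring peaks in the result was not tested beyond these values.

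Domains with a Thio-ChIP peak at 1 edge and the 178 with none at an edge had similar medians in several measures. Their median widths were 28.0 and 27.6 kb, their median scores 81 and 70, their median gains 7.43 and 9.13 kb, and 77.0% and 77.0% were wholly covered. With the edges of each domain sorted by gain, the larger and smaller gains had medians of 7504 and 401.5 bp without a Thio-ChIP peak at an edge, and of 6721 and 246 bp with one. The sorting fixes which of these is larger, so only the sizes are descriptive. In the 4 groups by score, from lowest to highest, 47.9%, 66.9%, 71.1% and 66.1% of domains had a Thio-ChIP peak at exactly 1 edge. Of the 43 domains with a Thio-ChIP centre more than 2 kb inside, 13 also had one at an edge. The widest domain was one of those without, its Thio-ChIP peak lying 41.6 to 43.2 kb from its left edge.

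When the boundary did move inwards, it did so by less at the Thio-ChIP edge. Among the 305 domains, it lay inside the DMSO edge in 37 cases at the Thio-ChIP edge, by a median of 103 bp, and in 30 cases at the opposite edge, by a median of 842.5 bp. On chromosome 5 (136384235 to 136410315) and chromosome 6 (148876073 to 148896128), both among the least covered domains, the loss was at the edge opposite the Thio-ChIP peak and the Thio-ChIP edge gained 58 and 507 bp.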

How the data were processed

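The members and gene lists were chosen with earlier results of these data known. Each deposited peak carries coordinates and a score set by the authors. No source used here says what that score measures, so it only ranked peaks within 1 list. Every list comes from a single ChIP library, and the H3K79me2 peak names cite the matched input as control, per the file contents. The submitters' processing notes name Bowtie, Bowtie2 2.2.9, MACS 1.4.2 and MACS2 2.1.1 and the builds mm9 and GRCm38, with no role given. The deposited FPKM values of the ES cell table, computed by the authors, were used only for marker levels and for choosing genes at 10 FPKM or more in the build check, in which a domain held a gene start within 1 kb of it. Of 7032 such genes 5434 had a start in the RefSeq GRCm38.p6 table, and chromosome 18 was not used in that scan.

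A domain was a DMSO peak over 20000 bp. Overlap meant 1 shared base. Outer span runs from the first to the last base of all inhibitor peaks overlapping a domain, and gain is what it adds beyond an edge. A Thio-ChIP peak was assigned to an edge when its centre was within 2000 bp. Intervals were handled in Python 3.11.15 with pandas 2.3.3, tested on simulated intervals and checked against bedtools 2.31.1, which gave the same values for all 484 domains. Wilson intervals (95%) cover counting error only, and neighbouring peaks are not independent. Named domains were the 10 widest, the 5 with the lowest covered share, those 3 on each side of the width limit and, chosen after values were seen, the largest ratios and joined pairs. The 5 with the highest covered share are wholly covered and among the 10 widest. The rule's gene names and the planned limma comparisons of Dot1l knockout cells, 3 libraries per group, were not made because the peaks were not placed on GRCm38.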

Additional observations from a re-analysis of the deposited data

How the results depend on the processing

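All values rest on 1 library per treatment, so there is no replicate to leave out, and the depth of the ChIP libraries is unknown. All domains stayed overlapped with at least 50% of the domain covered, with the 50% of each list that scored highest, and at width limits of 15 and 30 kb. Most of these outcomes were fixed by values given above. The lowest covered share was 79.6%, no DMSO peak over 5 kb lacked an overlap and no domain scored below the DMSO median of 24. Only the score limit on the inhibitor list could have lowered the count. When 1 inhibitor peak and the domain had to overlap by at least 50% each way, 83.1% did, since wider inhibitor peaks fail that rule by construction. The median covered share was 100% under every alternative run (score, 15 kb, 30 kb). Alternatives for the Thio-ChIP results were chosen after seeing the data. The share of domains with Thio-ChIP at exactly 1 edge was 53.1% with a window of 1 kb, 67.6% with 5 kb and 45.5% with the 50% of Thio-ChIP peaks that scored highest. The share that gained more at the opposite edge was 86.3% above 30 kb, 68.0% without another DMSO peak within 20 kb and 60.6% where no other DMSO peak was reached. For these 3 the cause was not tested, and the last subset was chosen by the extension itself. Other settings for genes under the domains and for the Dot1l knockout comparisons were not run, because peaks and gene tables were not joined. No paired analysis was possible because no replicated comparison could be joined to the domains.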
